A study of Mus musculus with 16 samples.

Results

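Within the liver RNA libraries of Terp-AUG, Terp-del7 and Terp-del7-wt, those numbered 1 and 3 were compared with those numbered 2 and 4. The members are 12 of the 16 libraries of the series, with 6 on each side and 2 of each group on each side, taken by the first number after the group name. The split was chosen by measured values and prompted by the data: female-biased genes, which growth hormone controls, had been seen to lie lower in replicates 1 and 3 of Terp-del7 and Terp-del7-wt. The labels do not explain the numbers and name no batch, date or cage, so what distinguishes the 2 sides is not known.

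Terp-AUG livers carry the label mTERC CUG/AUG, where mTERC is the mouse telomerase RNA gene. Terp-del7 livers lack 7 nucleotides of it, at positions 29 to 35. Terp-del7-wt and Terp-wt-AUG are labelled wild type, and the 4 libraries of Terp-wt-AUG did not enter the choice of the split. No mouse was treated, and all were kept in individually ventilated cages under 12 h of light and 12 h of dark with food at all times. Strain, sex, age and hour of collection are not given in the labels used here. The liver was frozen, 10 mg of tissue was taken, and 550 ng of RNA was freed of ribosomal RNA for a library that keeps the strand. Whether each replicate is an animal of its own is not stated, so a p-value here reflects variation among libraries that could be technical.

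Cells answer unfolded protein in the cytosol with heat shock factor, which switches on chaperones of the HSP70, HSP90 and DNAJ families. Unfolded protein in the endoplasmic reticulum (ER) is answered by the unfolded protein response, whose sensors raise ER chaperones and the machinery that removes misfolded proteins. In liver, both responses follow feeding, body temperature and the daily clock, and the pulses of growth hormone from the pituitary set which of the female-biased or male-biased genes are active.

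Chaperone genes of both compartments were higher in replicates 1 and 3 in all 3 groups. Since the numbers of these libraries chose the split, the difference between the sides is a description and no p-value is given for it. A gene is named as called where edgeR's adjusted p was under 0.05, which serves here only to rank genes. By that rule 943 of 14090 genes were called (6.69%), 593 higher (4.21%) and 350 lower (2.48%) in replicates 1 and 3. The lowest library of one side lay above the highest of the other in 377 genes that were higher (2.68%) and 152 that were lower (1.08%). The second principal component, with 17.6% of the variance, separated the sides without overlap, and the first, with 19.8%, did not follow them. Hist2h2bb (0.71 on the log2 scale) and Tmed9 (0.55) were the last genes inside the threshold, and Ddx59 (-0.64) and Trip11 (0.25) the next outside it.

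Total gene counts were 7833641 to 14629022 in replicates 1 and 3 and 7714058 to 12974588 in replicates 2 and 4. Albumin took 8.48% to 9.14% and 7.46% to 9.59% of counts, and all 11 hepatocyte markers listed were measured, as the liver label implies. Mitochondrially encoded genes took 9.65% to 12.1% and 10.4% to 12.2%, and reads outside annotated genes 22.7% to 29.4% and 21.8% to 28.6%. The ranges of the sides overlapped for each of these measures. The median standard error (SE) of a log2 difference between the sides was 0.12. In tissue RNA, fewer cells of a type and less RNA per cell cannot be told apart.

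Promoter sequence is shown for a few called members that hold a match, because the 2 chaperone systems are known for different control elements. ER chaperone genes carry the ER stress element, searched as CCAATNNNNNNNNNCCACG, and cytosolic ones the heat shock element, searched as GAANNTTCNNGAA or in its short form GAANNTTC, which lies inside the long one. Windows come from RefSeq on build GRCm38.p6, and the files themselves were aligned to GRCm39. Each window below is 5′ to 3′ on the gene's strand, upstream of the start, with the match in capitals. The Creld2 match is on the opposite strand.
Hspa5, chr2:34772020-34772049, plus strand: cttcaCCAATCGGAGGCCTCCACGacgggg
Creld2, chr15:88819515-88819544, plus strand: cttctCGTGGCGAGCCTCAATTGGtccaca
Syvn1, chr19:6046527-6046556, plus strand: cgcaaCCAATCGGCGGTAGCCACGggaaca
Hspa1b, chr17:34959324-34959353, minus strand: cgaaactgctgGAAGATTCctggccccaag
Dnaja1, chr4:40722333-40722362, plus strand: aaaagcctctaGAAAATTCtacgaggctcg

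The long heat shock element lies around or after the start in Chordc1 and Hsph1, both cytosolic chaperones that were called. Chordc1 holds 3 overlapping matches that together read GAACGTTCGGGAAAATTCCTGAA (chr9:18292263-18292285, plus strand), and Hsph1 holds TTCTGGAAAGTTC (chr5:149636288-149636300, minus strand). Both strands of 32851 promoters of 300 bases, 250 before and 50 after a start, were searched. The ER stress element was found in 9 of 25 ER chaperone promoters and in 0.119% of all promoters. The long heat shock element was found in 5 of 35 cytosolic chaperone promoters (0.603% of all). These belong to 4 of 26 genes, Chordc1, Hsph1 and the mitochondrial chaperonins Hspd1 and Hspe1, and 2 of the 4 were called higher. The short form was found in 14 of 35 (7.86% of all), in 13 of 26 genes. ER chaperone promoters held neither form of the heat shock element, cytosolic chaperone promoters held no ER stress element, and clock gene promoters held none of the 3. Of the 16 measured genes with an ER stress element, 8 were called higher and 0 lower, against 4.21% and 2.48% of all genes. The ER chaperone list supplied 9 of these 16 genes and 7 of the 8 calls. Of 58 with the long heat shock element, 7 (12.1%) were called higher and 0 lower. Of 724 with the short heat shock element, 41 (5.66%) were called higher and 20 (2.76%) lower. The E-box, searched as CACGTG, was found in 6 of 27 clock gene promoters (7.15% of all). Of 1178 measured genes with the E-box, 63 (5.35%) were called higher and 25 (2.12%) lower. Genes with a motif come from the 10134 measured genes that had a promoter, and the share called among those was not computed. A match describes the letters in the window and shows no binding.

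Cytosolic chaperones separated the sides. Of 31 listed genes 30 were measured and 30 lay above 0, with 17 called higher and 12 without overlap between the sides. Their median log2 difference was 0.55, against -0.01 over all genes. Hspa1b (ENSMUSG00000090877.4), an inducible HSP70, had 6.18, 11.4 and 19.9 CPM (counts scaled to a library of 1000000; lowest, median and highest) in replicates 1 and 3 and 0.650, 1.39 and 2.68 CPM in replicates 2 and 4. All 6 libraries of the first side lay above all 6 of the second, and the log2 difference was 2.86 (SE 0.33). Reads that fit Hspa1b and its near-identical copy Hspa1a equally well stayed out as multimapping, so the level is uncertain. The filter on low counts left Hspa1a out. Hsph1 (ENSMUSG00000029657.16), an HSP110 that recharges HSP70, had 61.3, 99.5 and 128 CPM against 13.8, 16.4 and 30.8 CPM, again without overlap, and a difference of 2.39 (SE 0.22).

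The constitutive HSP70 Hspa8 was at 492, 617 and 754 CPM on the first side and at 222, 298 and 390 CPM on the second (1.01, SE 0.13). Its ranges did not overlap, so this constitutive gene was on the higher side along with the inducible ones. Among DNAJ co-chaperones, which hand clients to HSP70, Dnajb1 was 1.22 higher (SE 0.10), Dnaja1 0.73 (SE 0.11) and Dnajb4 0.61 (SE 0.07), each without overlap. These differences were smaller than those of Hspa1b and Hsph1. HSP90 and its helpers behaved alike in direction. Hsp90aa1, the inducible HSP90, was 1.10 higher (SE 0.22), with 74.1 to 125 CPM against 34.3 to 84.4 CPM, and the HSP90 co-chaperones Chordc1 (1.15, SE 0.09) and Stip1 (0.79) and the related Cacybp (0.65, SE 0.09) were also called.

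Bag3, the co-chaperone that links HSP70 to autophagy, was 1.22 higher (SE 0.19) without overlap. The 13 members that were not called ranged from 0.04 (Hspd1) to 0.68 (Dnaja4). Among them were the mitochondrial chaperonins Hspd1 and Hspe1 (0.17), the cytosolic chaperonin subunits Cct2, Cct3 and Tcp1, and heat shock factors Hsf1 (0.18) and Hsf2 (0.33).

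**Figure D1:**
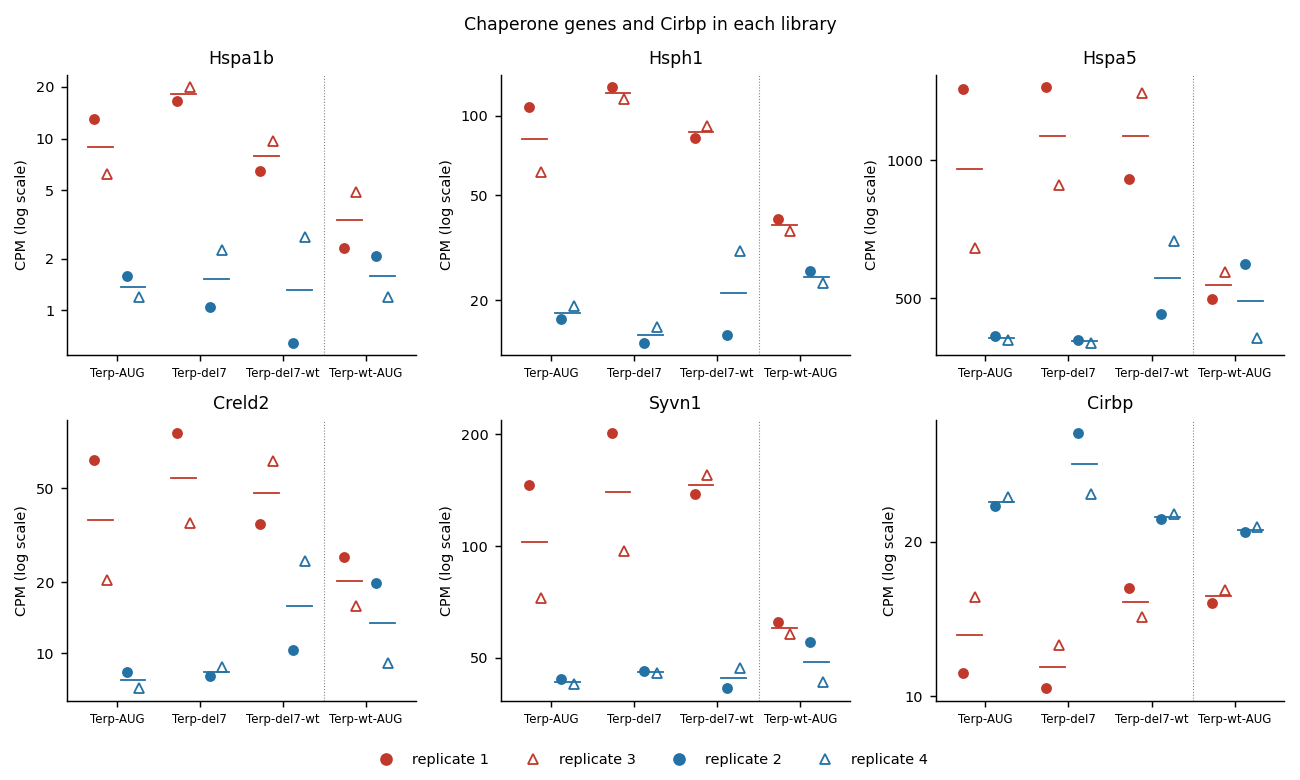
CPM (log axis) of 5 chaperone genes and Cirbp in each library, by group. Red marks are replicates 1 (filled circle) and 3 (open triangle), blue marks are replicates 2 (filled circle) and 4 (open triangle), bars are geometric means of 2 libraries, and the dotted line sets off Terp-wt-AUG, which the split did not use. Left of the line, Hspa1b lies at 6.18 to 19.9 CPM in red and at 0.650 to 2.68 CPM in blue, and Cirbp has the opposite order.

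ER chaperones and genes of the unfolded protein response were higher to the same median degree, with wider sides. All 30 listed genes were measured, 29 lay above 0, 21 were called higher and 1 lower, and the median was 0.55. The 21 calls became 9 without Terp-del7-wt replicate 3, 10 without Terp-AUG replicate 1, Terp-del7-wt replicate 2, Terp-del7 replicate 1 or Terp-del7 replicate 2, 12 without Terp-AUG replicate 4 or Terp-del7 replicate 4, and 8 with all 16 libraries in the fit. Hspa5 (ENSMUSG00000026864.14), the ER HSP70 known as BiP, had 644, 1150 and 1442 CPM in replicates 1 and 3 and 399.9, 409.2 and 665 CPM in replicates 2 and 4, a difference of 1.30 (SE 0.20). The sides overlapped through 1 library of each, replicate 3 of Terp-AUG at 644 CPM and replicate 4 of Terp-del7-wt at 665 CPM. The same 2 libraries were the overlap in Creld2 (ENSMUSG00000023272.5), a secreted ER stress protein, with 20.4, 50.6 and 85.6 CPM against 7.10, 8.51 and 24.5 CPM (2.25, SE 0.37).

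Manf, a small ER protein that holds BiP to its clients, did not overlap, with 56.3, 107 and 151 CPM against 22.3, 29.9 and 48.3 CPM (1.74, SE 0.24). Some genes of ER-associated degradation separated fully too, though of all 30 genes of the list 6 did. Syvn1, the ubiquitin ligase of that pathway, had 72.3, 142 and 201 CPM against 41.4, 44.8 and 46.9 CPM (1.58, SE 0.19), and its partner Sel1l was 0.47 higher (SE 0.09). Herpud1 was 1.06 higher (SE 0.18) and Dnajb9, a BiP co-chaperone, 1.41 (SE 0.21), both without overlap.

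Of the transcription factors of the response, Ddit3, the stress factor CHOP, was 1.07 higher (SE 0.18) without overlap, Xbp1 0.27 and Atf6 0.29 with overlap, while Atf4 had a difference of 0.09 and was not called. Trib3, a target of ATF4 and CHOP, was the member called lower, with 3.87, 5.35 and 7.57 CPM against 5.997, 9.11 and 13.1 CPM (-0.78, SE 0.19). Oxidoreductases that form disulphide bonds were called higher in part, with Pdia3 (0.62), Pdia6 (0.60) and Pdia4 (0.54) among them and P4hb (0.05) not. Members of the list that carry the ER stress element had a median of 0.60 over 9 genes with 7 called higher. The 16 that had a promoter in the table and no match had 0.48 with 10 called higher. Of cytosolic chaperones, the 12 with the short heat shock element had a median of 0.70 with 6 called higher. The 13 without it had 0.48 with 9 called higher.

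Lists written after the values had been seen extend this description to neighbouring steps. All 4 ER stress sensors were called higher, with Ern1, the IRE1 sensor, at 125, 132 and 162 CPM against 84.0, 97.6 and 112 CPM (0.51, SE 0.06) and Eif2ak3, the PERK sensor, 0.81 higher (SE 0.12). Of 23 genes of N-glycan synthesis 6 were called higher, among them Gmppb (1.08, SE 0.18), Alg12 (0.94, SE 0.16) and Alg2 (0.91, SE 0.14), and the list's median was 0.10. The list is thus uneven, with 8 of its genes below 0. All 29 ribosome assembly genes lay above 0 with 12 called higher and a median of 0.34, led by Bysl (0.95, SE 0.16), which matures the small subunit, whereas the 25 genes of ribosomal proteins themselves had 0 calls and lay around 0.

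As mean levels per library on the log2 scale, cytosolic chaperones lay at 0.10, 0.44 and 0.56 in replicates 1 and 3 and at -0.40, -0.37 and -0.05 in replicates 2 and 4. ER chaperones lay at 0.05, 0.44 and 0.63 against -0.47, -0.33 and -0.01. Both levels separated the sides in the 3 groups. Between the 2 libraries of a group on a side, the 2 lists differed in the same direction in 4 of 6 pairs. Female-biased genes differed in the same direction as cytosolic chaperones in 6 of 6 pairs and as ER chaperones in 4 of 6. Their median between the sides had the opposite sign to that of the chaperones. The clock, growth hormone signalling and male-biased lists each went opposite to either chaperone list in 5 of 6 pairs. These counts were not tested. The median of cytosolic chaperones was 0.45 in Terp-AUG, 0.69 in Terp-del7 and 0.37 in Terp-del7-wt, and that of ER chaperones 0.47, 0.86 and 0.37.

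**Figure D2:**
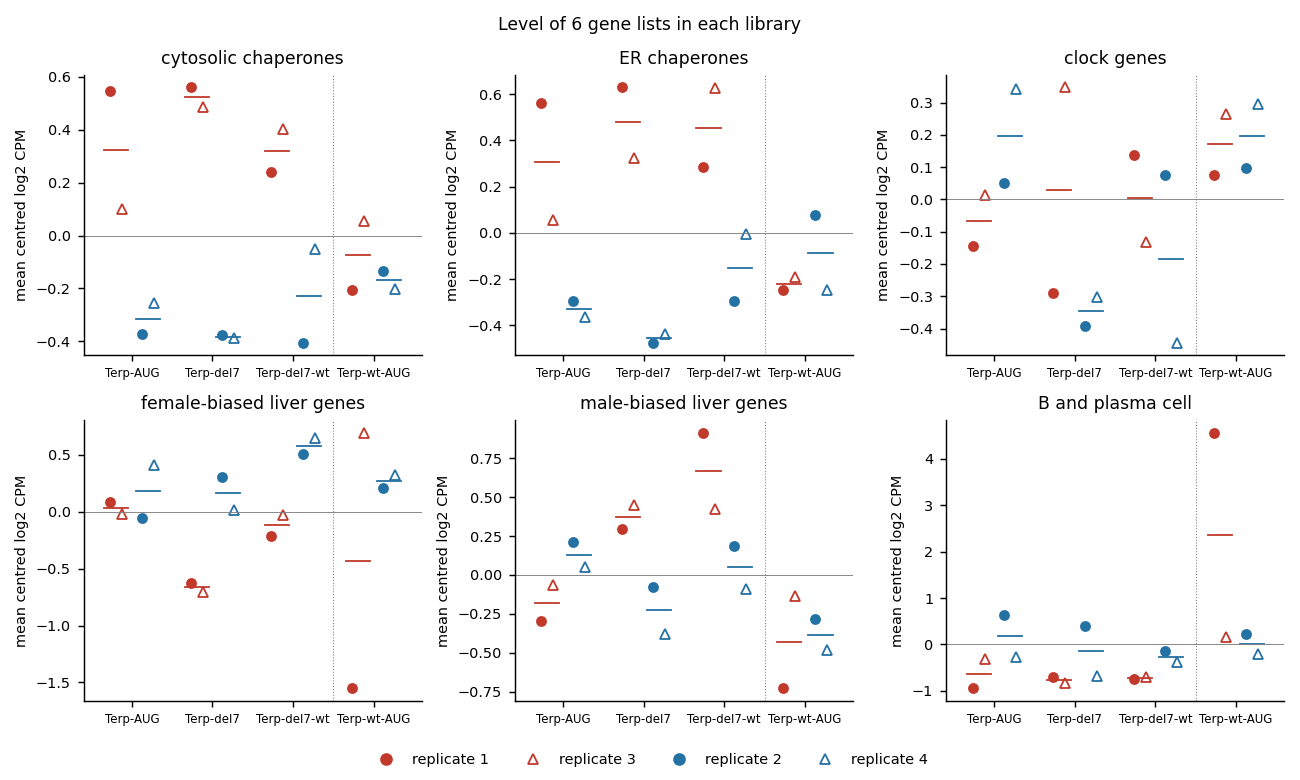
Level of 6 gene lists in each library, as the mean of the members' gene-centred log2 CPM, with symbols as in the plot of chaperone genes and bars at the mean of 2 libraries. Cytosolic and ER chaperones separate red from blue in Terp-AUG, Terp-del7 and Terp-del7-wt, clock genes do not, and female-biased genes lie lower in red in Terp-del7 and Terp-del7-wt.

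Cirbp (ENSMUSG00000045193.14), an RNA-binding protein whose mRNA is known to accumulate in the cold and to fall with heat, was on the opposite side to the chaperones. It had 10.4, 13.4 and 16.3 CPM in replicates 1 and 3 and 22.1, 23.9 and 32.6 CPM in replicates 2 and 4, without overlap, and a difference of -0.91 (SE 0.14). Rbm3, the related cold-inducible gene, had 24.2, 30.4 and 32.8 CPM against 17.7, 26.5 and 31.8 CPM, was not called (0.20, SE 0.11) and lay in the other direction.

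Clock genes had no common direction as a list. Of 25 measured, 11 lay above 0 and 14 below, 1 was called higher and 1 lower, and the median was -0.06. Genes that peak at opposite hours cancel in the sign counts, the median and the mean level, so these cannot show a shift of phase. Per1, a repressor of the clock that also answers glucocorticoids, had 27.3, 35.1 and 56.7 CPM against 12.3, 16.0 and 37.0 CPM, a difference of 0.96 (SE 0.24). In Terp-AUG its sides overlapped, with a difference of 0.12 there, 1.54 in Terp-del7 and 1.26 in Terp-del7-wt. The call was kept in 2 of 12 fits that left out a library.

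Noct, a rhythmic gene of lipid metabolism, had 14.4, 41.0 and 63.6 CPM against 6.17, 11.2 and 40.4 CPM and was not called (1.49, SE 0.42). Cry1 (0.59), Cry2 (-0.51), Bhlhe40 (0.41) and Csnk1d (0.19) were not called either.

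The core genes that swing most over a day varied strongly between libraries and not by side. Dbp, an output factor of the clock named here after its values were seen, ran from 10.0 CPM in Terp-del7 replicate 1 to 172 CPM in Terp-AUG replicate 4. Arntl, its activator, also named afterwards, was at 27.4 and 2.71 CPM in those 2 libraries. Both sides held high and low libraries of each gene, and their differences between the sides were -0.20 and -0.14.

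**Figure D3:**
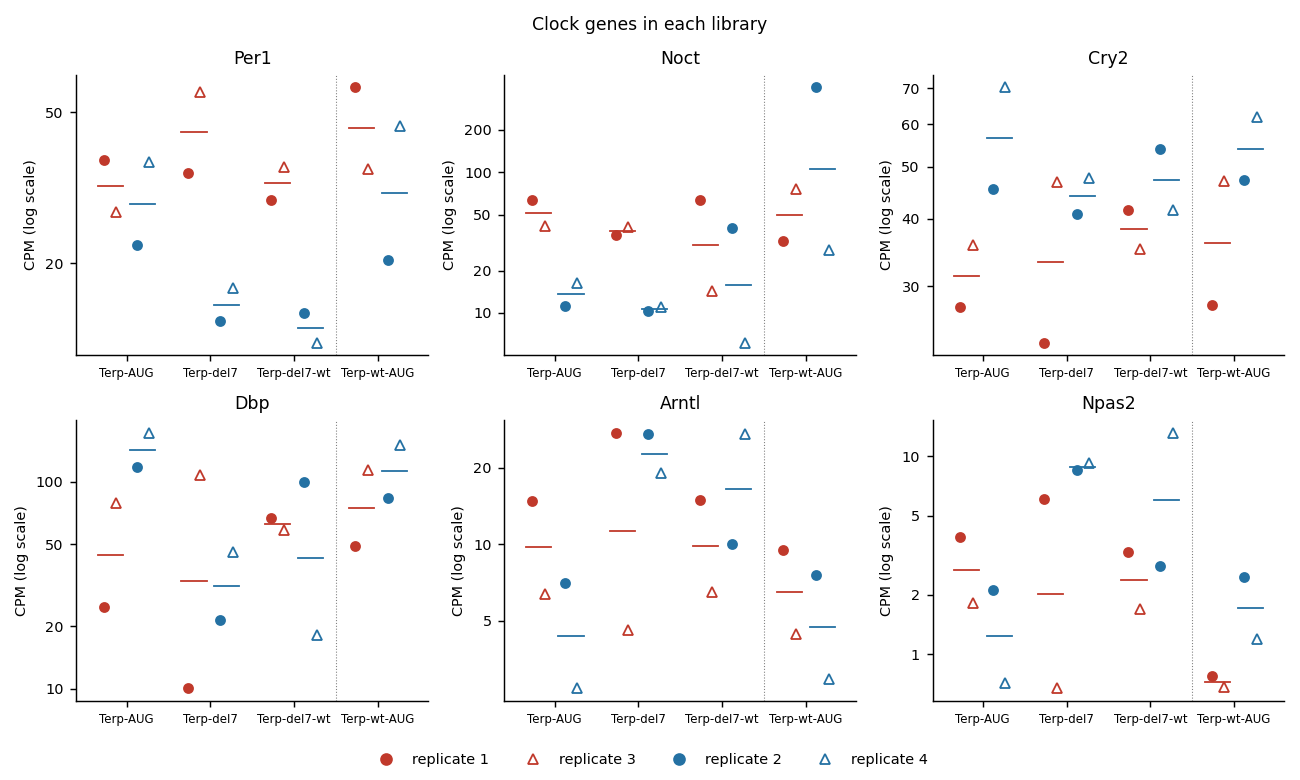
CPM (log axis) of 6 clock genes in each library, with symbols as in the plot of chaperone genes. Per1 and Noct lie mostly higher in red left of the dotted line, whereas Dbp, Arntl and Npas2 run from low to high on both sides.

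Genes of the growth hormone axis are where the split was first seen, so their values carry no weight of their own. Chaperones and clock genes were named with them when the split was set, so their differences in the same libraries are no independent support either. Of 14 measured genes of growth hormone signalling 1 was called, Hnf4a, the hepatocyte master regulator, with 589, 713 and 785 CPM against 498, 529 and 560 CPM (0.40, SE 0.07) and no overlap. The receptor Ghr (-0.15), its transducers Jak2 (-0.07), Stat5a (-0.11) and Stat5b (-0.18) and the circulating product Igfals (-0.17) were not called, nor were the feedback inhibitor Cish (0.61), the repressor Bcl6 (-0.95) and Onecut1 (0.87). The receptor and its transducers thus lay close to 0 in these libraries, which do not include Terp-wt-AUG.

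Of 26 female-biased genes 22 lay below 0, 3 were called lower and the median was -0.42. The direction was carried by 2 groups, with medians of -0.62 in Terp-del7, -0.72 in Terp-del7-wt and -0.08 in Terp-AUG. Acot3, a peroxisomal thioesterase, was the member without overlap, with 55.0, 84.3 and 132 CPM against 142, 165 and 319 CPM (-1.08, SE 0.12), and it was lower in Terp-AUG as well (-1.09). Cyp3a44, a cytochrome P450, had 33.1, 134 and 391 CPM against 126, 242 and 782 CPM (-1.18, SE 0.33), and Cyp2c40 a difference of -0.44 (SE 0.12). Both sides overlapped, and the calls were kept in 2 and 3 of 12 fits that left out a library. With the replicate number as a block, Cyp3a44 was not called.

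A1bg, a secreted protein known for strong female bias, had 19.98, 112 and 799 CPM against 483, 783 and 5226 CPM and was not called (-3.53, SE 1.05), with -5.05 in Terp-del7, -4.57 in Terp-del7-wt and -0.30 in Terp-AUG. Cux2, a female-biased repressor of male genes, was at -0.91 (SE 0.28) and not called. Reads that fit Cyp3a44, Cyp3a41a or Cyp3a41b and a near-identical copy equally well stayed out as multimapping, so these values are uncertain.

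Male-biased genes lay above 0 in 13 of 18 measured, of 24 listed, with a median of 0.22, or 0.42 in Terp-del7, 0.21 in Terp-del7-wt and -0.14 in Terp-AUG. Mup20, a urinary protein, had 4.76, 16.8 and 30.1 CPM against 4.52, 5.89 and 8.27 CPM, was called (1.30, SE 0.34) and kept the call in 4 of 12 fits that left out a library. With the replicate number as a block, Mup20 was not called and no gene of the list was. Many Mup genes are near-identical copies, and whether this affects the value of Mup20 was not tested. Slco1a1, a bile salt and steroid transporter, reached 91.7 CPM in Terp-del7-wt replicate 1 and 6.49 CPM in replicate 3 of that group, and at most 2.69 CPM elsewhere among the 12 libraries (3.54, SE 1.07, not called).

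**Figure D4:**
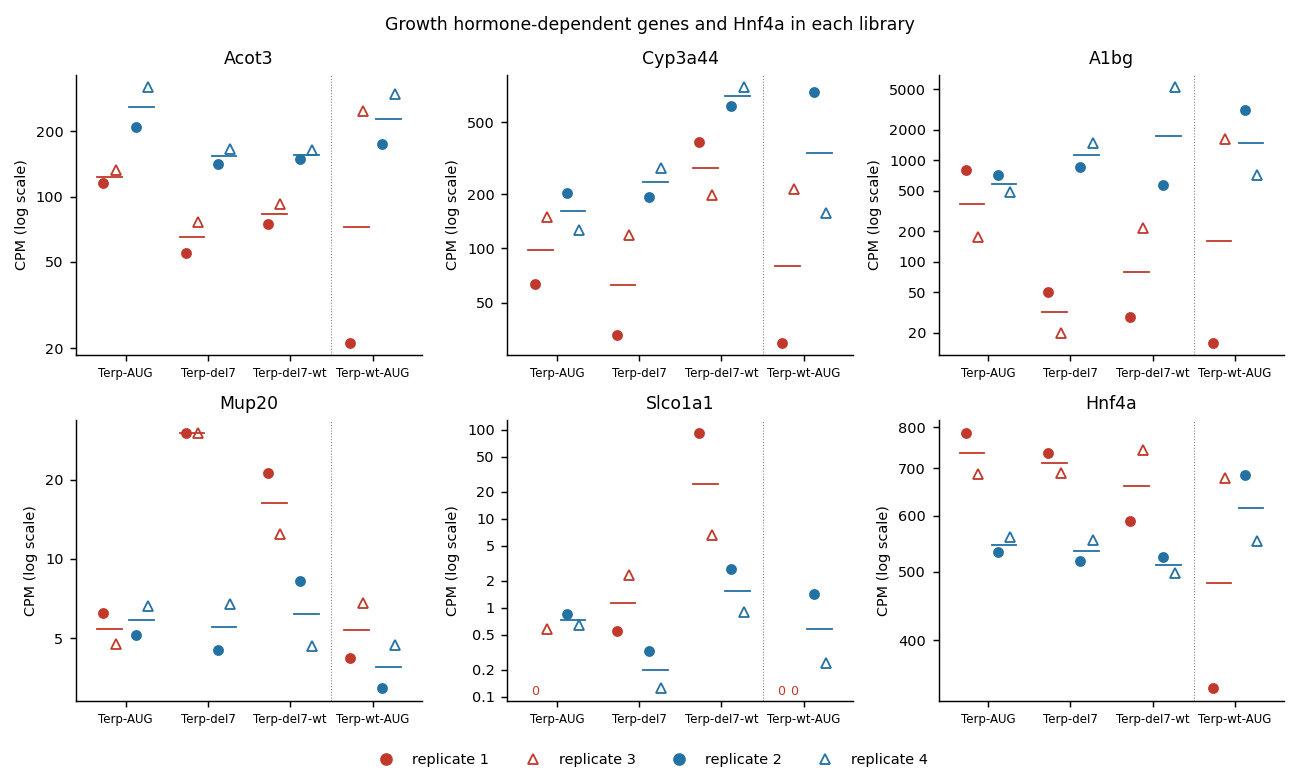
CPM (log axis) of 3 female-biased genes (Acot3, Cyp3a44, A1bg), 2 male-biased genes (Mup20, Slco1a1) and Hnf4a in each library, with symbols as in the plot of chaperone genes and a 0 where a library had no count. Acot3 lies lower in red in all 3 groups left of the dotted line, A1bg and Mup20 separate in Terp-del7 and Terp-del7-wt only.

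Outside these programmes the genes that ranked highest had several roles. P4ha1, which hydroxylates collagen, had 23.6, 28.9 and 36.7 CPM against 10.9, 11.7 and 15.5 CPM (1.27, SE 0.11), and Banp (ENSMUSG00000025316.17), a nuclear matrix protein that binds promoters, 20.4, 26.9 and 34.0 CPM against 9.42, 10.3 and 12.4 CPM (1.34, SE 0.12). Atp2a2, the calcium pump of the ER, was 0.92 higher (SE 0.09), the inositol transporter Slc5a3 1.09 (SE 0.12), the splicing protein Sfpq 0.60 (SE 0.06) and the coactivator Pprc1 0.82 (SE 0.09). None of these 6 overlapped.

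On the lower side were Eepd1 (-0.91, SE 0.10), Rxrg, a retinoid X receptor (-0.80, SE 0.10), Pex16, a peroxisome assembly factor (-0.62, SE 0.07), the flagellin receptor Tlr5 (-0.86, SE 0.11) and Ccng2, a cyclin of resting cells (-0.83, SE 0.12), each without overlap. F11, coagulation factor XI, was lower with overlap (-0.74, SE 0.09).

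Among smaller lists, all 20 cholesterol synthesis genes lay below 0 with a median of -0.49, and Msmo1 (-0.75, SE 0.14) and Fdft1 (-0.61, SE 0.13), both enzymes of the pathway, were called. These 2 calls became 8 without Terp-AUG replicate 4, 7 with the replicate number as a block, 11 by DESeq2 and 17 with no filter on low counts. Of 15 interferon-stimulated genes 14 lay below 0 with a median of -0.49, and Ifit1 (-0.94, SE 0.19) and Ifit3 (-0.86, SE 0.19), which bind viral RNA, were called. Glucocorticoid targets went both ways. Zbtb16, a transcription factor, had 34.1, 52.6 and 69.2 CPM against 12.7, 20.8 and 34.7 CPM (1.23, SE 0.14), while the metallothionein Mt2 had 4.53, 23.0 and 74.5 CPM against 31.0, 86.3 and 195 CPM (-2.0, SE 0.34).

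The drug-metabolizing Cyp3a11 was 0.97 higher (SE 0.17) and Alas1, which starts haem synthesis, 1.5 (SE 0.35), the latter called in 7 of 12 fits that left out a library. The nuclease Aen, a p53 target, was 0.76 higher (SE 0.13) without overlap.

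Markers of other cell types had 0 calls. The medians were 0.00 for 14 Kupffer cell and macrophage genes, -0.04 for 10 sinusoidal endothelial genes and -0.04 for 12 stellate cell genes. They were -0.32 for neutrophil genes (3 of 3 measured below 0), -0.30 for erythroid genes (7 of 7) and -0.22 for T and NK cell genes (5 of 7). All 9 measured B and plasma cell genes, of 10 listed, lay below 0 with a median of -0.71. Ighm, the heavy chain of IgM, had 22.8, 27.2 and 32.2 CPM against 27.7, 42.9 and 134 CPM (-1.04, SE 0.31). The mean level of that list was -0.95, -0.73 and -0.33 in replicates 1 and 3 and -0.68, -0.20 and 0.62 in replicates 2 and 4. The sides did not overlap within any of the 3 groups, no measured marker was at 0 in a library, and the part of B cells in other differences was not tested.

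Whether the difference between the sides itself varied among Terp-AUG, Terp-del7 and Terp-del7-wt was tested with edgeR's quasi-likelihood test of the group-by-split terms. Of 14090 genes 0 passed (0%) and the lowest adjusted p was 0.148. An unadjusted p under 0.05 was found for 478 (3.39%), and limma voom called 0 and DESeq2 22. The 5 genes with the smallest p were Prph, Slc22a28, Nlrp12, Col6a5 and Insig2. Prph, an intermediate filament gene, had differences of 5.10 in Terp-AUG, 3.15 in Terp-del7 and -1.36 in Terp-del7-wt (edgeR adjusted p = 0.148) at levels up to 3.13 CPM. Slc22a28, of the organic anion transporter family, had -0.17, 3.90 and -5.19 (edgeR adjusted p = 0.239). For Mup20 the adjusted p was 0.707, and for the other named genes of the 6 main lists it was 1.00. A p above the threshold does not show that the groups were alike. The split was prompted by female-biased genes in Terp-del7 and Terp-del7-wt, which is itself a difference among these groups. For the 6 main lists this test is therefore not independent of the choice, and its p-values there are descriptions.

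The same numbers were then compared in Terp-wt-AUG, which the choice had not used. A second label numbers the libraries of this group otherwise, and the first number after the group name was used here as well. With 2 libraries against 2, an exact permutation test of 1 gene cannot go below p = 0.333, so edgeR's model of all 16 libraries was used. Of 14421 genes 0 passed (0%), the smallest adjusted p was 0.157, 2640 had an unadjusted p under 0.05 (18.3%), limma voom called 0 and DESeq2 called 527. Terp-wt-AUG replicate 1 stood apart, with albumin at 4.37% of counts, 35.0% of reads outside annotated genes and a B and plasma cell level of 4.56, against -0.20 to 0.22 in the other 3. Without it 0 of 14582 genes passed (0%), 620 had an unadjusted p under 0.05 (4.25%) and the smallest adjusted p was 0.301. Without replicate 3, which leaves that library alone on its side, 5256 passed, and without replicate 4 110 did.

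The genes called in the 12 libraries leaned the same way in Terp-wt-AUG. Of the 593 called higher, 439 (74.0%) lay above 0 there, against 50.7% of all 14090 genes, with a median of 0.21. Of the 350 called lower, 256 (73.1%) lay below 0, against 49.3% of all genes, with a median of -0.30. Without replicate 1 these shares were 75.7% and 64.3%, against 49.2% and 50.7% of all genes, and the medians 0.13 and -0.13. In 215 of the 593 (36.3%) both libraries of one side lay above both of the other, against 16.0% of the same 14090 genes and 16.1% of all 14421. In 99 of the 350 (28.3%) both lay below, against 15.05% and 14.9%. Genes are not independent replicates, and these shares are descriptions of 4 libraries.

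Banp was the member of the ranking that also had one of the 5 smallest p-values in Terp-wt-AUG. It had 20.2 and 20.7 CPM in replicates 1 and 3 and 10.2 and 9.58 CPM in replicates 2 and 4, a difference of 1.04 (SE 0.19, edgeR adjusted p = 0.184). These levels are close to those of the matching sides in Terp-AUG. Chordc1 had 47.8 and 42.5 CPM against 32.1 and 28.7 CPM (0.57, SE 0.16, edgeR adjusted p = 0.184), P4ha1 25.9 and 16.8 CPM against 12.3 and 10.8 CPM (0.89, SE 0.23, edgeR adjusted p = 0.184).

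Hsph1 had 40.4 and 36.6 CPM against 25.7 and 23.1 CPM (0.66, SE 0.31), Hspa1b 2.31 and 4.89 CPM against 2.09 and 1.20 CPM (1.11, SE 0.63) and Cirbp 15.2 and 16.1 CPM against 20.9 and 21.4 CPM (-0.43, SE 0.19). None passed, at edgeR adjusted p-values of 0.281, 0.358 and 0.262, and the sides did not overlap in any of the 3. Zbtb16 was at 35.7 and 72.3 CPM against 25.8 and 20.6 CPM (1.22, SE 0.34, edgeR adjusted p = 0.184), and Mt2 went against its order in the 12 libraries, with 156 and 198 CPM against 48.0 and 18.2 CPM (2.42, SE 0.61, edgeR adjusted p = 0.184).

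The chaperone lists as a whole were not carried over evenly. Of 30 cytosolic chaperones 21 lay above 0 with a median of 0.05 (0.16 without replicate 1), and of 30 ER chaperones 9 did with a median of -0.20 (-0.07 without it), against 0.01 over all genes. Hspa5 had 498 and 569 CPM against 592 and 409 CPM, Creld2 25.5 and 15.9 CPM against 19.9 and 9.10 CPM, and Dnajb1 18.0 and 16.3 CPM against 16.5 and 18.4 CPM, and all overlapped. Ribosome assembly genes were above 0 in 26 of 29, with a median of 0.37 that was 0.05 without replicate 1.

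Clock genes had a median of -0.24 in Terp-wt-AUG (-0.03 without replicate 1) and female-biased genes -0.79 (-0.09 without it). Male-biased genes lay above 0 in 9 of 18, with a median of -0.02 (-0.03 without replicate 1). Growth hormone signalling genes lay above 0 in 3 of 14, with a median of -0.43 (-0.23 without replicate 1). Among them Ghr was at -2.36 (SE 0.66, edgeR adjusted p = 0.184), or -1.71 without replicate 1. Interferon-stimulated genes went against their order in the 12 libraries, with 14 of 15 above 0 and a median of 1.14, or 15 of 15 and 0.38 without replicate 1. Cholesterol synthesis genes lay above 0 in 7 of 20 with a median of -0.14, or in 17 of 20 with 0.18 without it. The other genes with the smallest p there were Slc22a28, Sfi1, Fam151b and Atp11a. Slc22a28 had 4.07 and 3.41 CPM in replicates 1 and 3 and 0.0948 and 0.0798 CPM in replicates 2 and 4 (5.26, SE 0.84, edgeR adjusted p = 0.184). Among the 12 libraries it was higher in replicates 1 and 3 in Terp-del7 and lower in Terp-del7-wt. Sfi1, a centrosome protein, had 47.2 and 31.5 CPM against 13.7 and 13.6 CPM (1.53, SE 0.26), while in the 12 libraries its difference was -0.40.

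**Figure D5:**
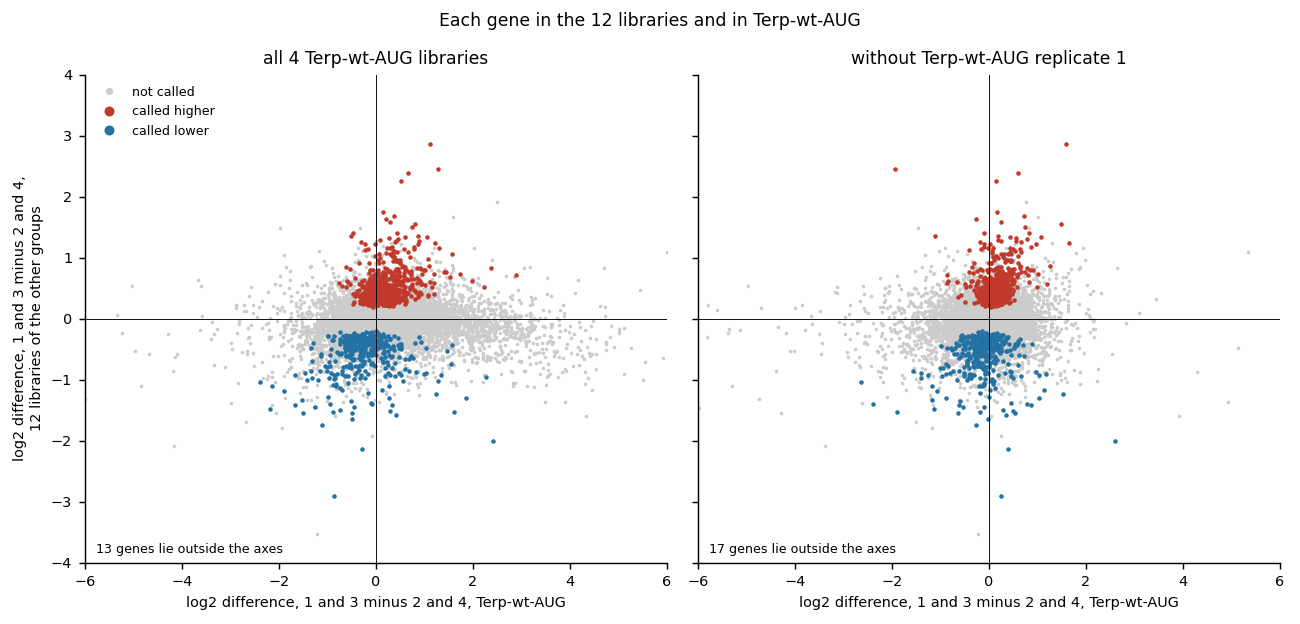
Each point is a gene, with its log2 difference between replicates 1 and 3 and replicates 2 and 4 in Terp-wt-AUG (horizontal) and in the 12 libraries of the other groups (vertical), with all 4 Terp-wt-AUG libraries (left) and without replicate 1 (right). Red and blue points are the 593 and 350 genes called higher and lower in the 12 libraries, of which 74.0% and 73.1% have the same sign on the left.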

How the data were processed

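The values deposited by the authors are raw counts of reads for each gene in 16 liver libraries. Per the submitters' processing notes, cutadapt 2.10 did the trimming and STAR 2.7.9a the alignment, on build GRCm39; no source used here gives the annotation. The table of all libraries matched reverse-strand counting in 16 of 16. Names were found for 52081 of 55357 genes by identifier, and unassigned or multimapping reads stayed out.

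The counts were fitted with edgeR 4.0.16 in R 4.3.3 (TMM, filterByExpr with a minimum count of 10, glmQLFit and glmQLFTest, two-sided, Benjamini-Hochberg, threshold 0.05). The split was fitted on 12 libraries with group as covariate (8 residual degrees of freedom), the interaction on the same 12 (6), and Terp-wt-AUG in a group-by-split model of 16 (8). List levels used log2 CPM with a prior count of 2, and scripts were tested on simulated data.

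Members, gene lists and naming rule were chosen with earlier results of these data known. The rule took, by smallest p, up to 8 members of each main list, 10 genes in each direction over all genes, 2 members of other lists and 5 genes for each test. Promoter motifs, other genes named from the lists, and the lists of ribosome assembly, N-glycan synthesis and ER stress sensors came after values were seen. Alternatives were RLE scaling, no filter, a filter at 1 CPM, DESeq2 1.42.0, voom of limma 3.58.1, unstranded counting, all 16 libraries, Terp-wt-AUG alone, a replicate block and leaving out each library. Telomerase RNA itself is not analysed here, and some clock genes are not reported here.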

Additional observations from a re-analysis of the deposited data

Results flagged for a closer look

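A library was singled out where its gap to the nearest of the 4 libraries of its group took a larger share of the group's range than Dixon's 95% critical value, which chance gives in about 1 of 20 groups. Of 553 groups of values checked, 20 met it (3.62%), and 11 of those were Terp-wt-AUG replicate 1. In that library 35.0% of reads lay outside annotated genes (24.2% to 25.6% in the other 3). Its list levels were 4.56 for B and plasma cells, 3.66 for T and NK cells, 3.21 for the cell cycle, 1.93 for neutrophils, -1.51 for fasting genes and -1.09 for adipose, muscle, pancreas and gut genes. Its levels were 80.7 CPM for Csnk1d, 35.6 CPM for Igfals, 22.2 CPM for Pex16 and 74.4 CPM for Rbm3, against 67.1 to 67.9, 122 to 131, 65.3 to 68.2 and 21.9 to 25.9 CPM in the other 3.

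Among the 12 libraries of the split, Terp-del7 replicate 2 had Ighm at 134 CPM (25.5 to 27.7 CPM in the others) and a B and plasma cell level of 0.40 (-0.84 to -0.68). Terp-del7 replicate 3 had a clock gene level of 0.35 (-0.39 to -0.29) and Npas2 at 0.673 CPM (6.08 to 9.21 CPM). Terp-del7 replicate 4 had Fam151b at 3.61 CPM and Susd4 at 0.373 CPM, and Terp-del7 replicate 1 Zmat3 at 17.4 CPM. Terp-AUG replicate 1 had Alas1 at 596 CPM (247 to 283 CPM), and Terp-del7-wt replicate 1 Atp11a at 56.8 CPM (39.5 to 40.2 CPM).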

How the results depend on the processing

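The 943 genes called between the sides became 1761 without the filter on low counts (802 higher, 959 lower) and 275 with all 16 libraries in the fit (217 higher, 58 lower). RLE scaling gave 908, DESeq2 1218, limma voom 935 and the unstranded column 906. Leaving out 1 library gave 417 (without Terp-del7 replicate 1) to 959 (without Terp-AUG replicate 3), with 453 without Terp-del7-wt replicate 3, 455 without Terp-del7 replicate 2, 511 without Terp-AUG replicate 1 and 515 without Terp-del7-wt replicate 2. For the interaction, 422 passed without the filter, 22 by DESeq2 and 0 to 2 with 1 library left out. In Terp-wt-AUG, 2338 passed without the filter (1697 higher), 527 by DESeq2, and 0 to 5256 with 1 of its libraries left out. The cause of these shifts was not tested. With 1 library left out, list medians ran from 0.50 to 0.62 for cytosolic chaperones, 0.50 to 0.65 for ER chaperones, -0.17 to 0.13 for clock genes, -0.54 to -0.37 for female-biased genes, 0.06 to 0.38 for male-biased genes and -0.13 to -0.08 for growth hormone signalling. With all 16 libraries in the fit, 0 genes of the clock, growth hormone signalling, female-biased and male-biased lists were called, and without the filter 10, 5, 17 and 9. Of 1840 values of 92 named genes over 20 settings, 14 changed sign.

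With the replicate number as a block, 977 genes were called, and Mup20, Cyp3a44 and Zmat3 were not among them. The main fits did not pair the samples by number, and whether the numbers pair them is not known. Same-numbered libraries of 2 groups deviated together with a correlation over 0.1 in 9 of 12 pairs (0.001 to 0.308). Between Terp-del7 and Terp-del7-wt all 4 same-numbered pairs exceeded it (0.187, 0.291, 0.290 and 0.102). Libraries of 1 side with the other number did so in 6 of 12 pairs, and libraries of opposite sides in 1 of 24.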
